A study of Mus musculus with 4 samples.

Results

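Krüppel-like factors (KLFs) are transcription factors that bind DNA through C2H2 zinc fingers at the C-terminal end and recognise GC-rich and CACCC sequences. The account covers the 8 KLF genes Klf2, Klf3, Klf4, Klf6, Klf7, Klf9, Klf10 and Klf13, chosen by gene symbol from the 24411 rows of the deposited count table, and all 8 passed the filter on low counts. RNA was sequenced from B220+CD43+HSA+ cells, labelled pro-B cells (early precursors of B cells), which were sorted from the marrow of C57BL/6 mice. The knockout (KO) group held 2 mice with the genotype Tnpo3fl/fl mb1Cre (KO 51 and KO 63), and the control (WT) group held 2 mice with the genotype Tnpo3+/+ mb1Cre (WT 55 and WT 69). Every mouse thus carried mb1Cre, in which the Cd79a locus drives Cre in B-lineage cells, and the sorted cells of a floxed mouse can include cells in which recombination has not occurred. Ages were not given in the sources used here. Tnpo3 encodes transportin 3, which carries splicing factors of the SR family into the nucleus.

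The family divides by the partners its N-terminal parts bring to DNA. Klf2, Klf4, Klf6 and Klf7 act mainly as activators, Klf3 is a repressor that recruits CtBP, and Klf9, Klf10 and Klf13 recruit the SIN3 and histone deacetylase complex. In lymphocytes Klf2 and Klf4 are known for holding resting cells out of the cell cycle, and Klf2 for the control of homing receptors.

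Libraries held 40647384 and 30440627 counts in KO 51 and KO 63, and 32697489 and 26211372 in WT 55 and WT 69. Tnpo3, the targeted gene, was at 79.7 and 68.8 CPM (counts relative to library size, scaled by TMM) in KO 51 and KO 63, against 159 and 148 in WT 55 and WT 69. It fell by 1.05 ± 0.14 on the log2 scale (SE, edgeR quasi-likelihood, adjusted p 0.0108, or 0.0603 without KO 63). B-lineage markers summed to 1624 and 1383 CPM in KO 51 and KO 63 and to 6071 and 6219 CPM in WT 55 and WT 69, and 7 of the 8 fell. Dendritic cell markers summed to 3883 and 5364 CPM in the KO libraries and to 454 and 146 CPM in WT 55 and WT 69, with 7 of 9 higher in KO. Natural killer and innate lymphoid markers were at 687 and 227 CPM in KO 51 and KO 63, and at 31.9 and 28.3 CPM in WT 55 and WT 69, with 6 of 8 higher. Sums of T cell markers were 103 and 82.0 CPM in KO and 17.6 and 33.6 CPM in WT (3 of 8 higher). Those of neutrophil and monocyte markers were 1404 and 884 CPM in KO and 3048 and 2308 CPM in WT (6 lower and 2 higher of 9 tested). The 2 higher were Ly6c2 and Ccr2, and Ly6c2 alone gave 1152 and 768 CPM of the sums in KO 51 and KO 63. Ly6c2 was at 84.3 and 48.5 CPM in WT 55 and WT 69. Of the 6 lower, S100a8 was at 44.1 and 11.1 CPM in KO 51 and KO 63, against 1099 and 768 CPM in WT 55 and WT 69. Erythroid markers summed to 2.13 and 5.87 CPM in KO and 65.7 and 56.9 CPM in WT (5 of 6 lower), and eosinophil, basophil and mast cell markers to 3.39 and 2.36 CPM in KO and 263 and 129 CPM in WT (4 of 5 lower). Over all tested genes 10.9% were called lower and 11.3% higher. No detected marker of these lists was at 0 in every library. Their part in the KLF values below was not tested, and in bulk RNA fewer cells of a type and less RNA per cell cannot be told apart.

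Klf10 fell in the knockout to 0.432 times its WT level, and the other 7 members did not pass the threshold. All 8 members had a fitted log2 fold change below 0, with a median of -0.73, against a median of -0.020 over all 13507 genes tested, of which 51.3% were below 0. Without WT 55, 6 of 8 were below 0 and their median was -0.41. The count of members called lower at an adjusted p of 0.05 was 1 of 8, close to the background of 10.9% of tested genes, and 0 of 8 were called higher, against 11.3%. In either direction 22.2% of tested genes were called. By DESeq2 at the same threshold 2 of 8 were lower and 0 higher, against 14.1% and 15.2% of tested genes. At an unadjusted p of 0.05 in edgeR 2 were lower and 0 higher, against 19.0% and 18.8%. In 5 of 8 members (Klf3, Klf4, Klf7, Klf9 and Klf10) both KO libraries lay below both WT libraries, which held for 34.6% of tested genes. The WT mice differed from each other in Klf2, Klf4 and Klf6, which were 2.29 to 3.03 times as high in WT 55 as in WT 69. The plot of the members' levels by library shows both patterns.

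**Figure D1:**
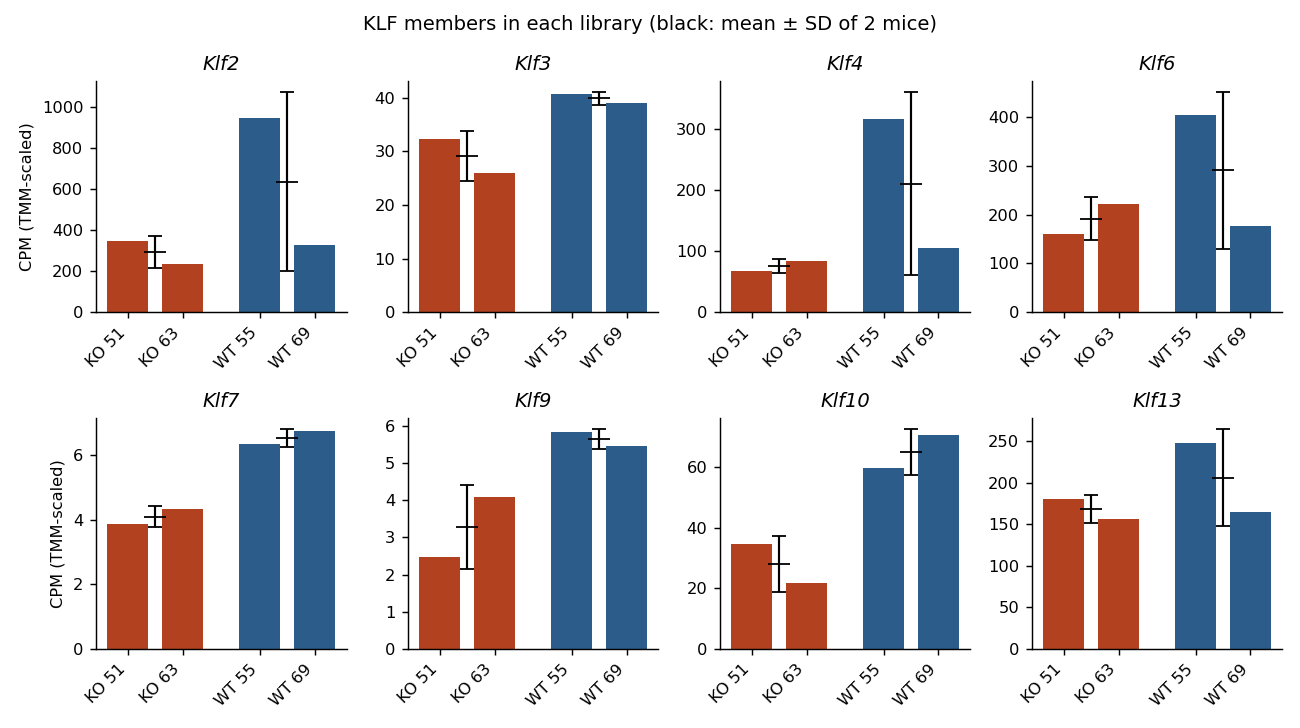
CPM (linear axis, TMM-scaled) of the 8 KLF members in KO 51, KO 63, WT 55 and WT 69; bars are single libraries and black marks are the mean ± SD of 2 mice. Klf10 is lower in both KO libraries, and the tallest bars of Klf2, Klf4 and Klf6 belong to WT 55.

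Klf10 (GRCm38 chr15:38291463-38300706, minus strand), first described as a gene induced early by TGF-beta, was at 34.6 and 21.6 CPM in KO 51 and KO 63, against 59.6 and 70.4 CPM in WT 55 and WT 69. The groups did not overlap, and KO 63 held the lowest value. The fitted log2 fold change was -1.21 ± 0.26 (SE; 95% interval -1.87 to -0.55; adjusted p 0.0309 in edgeR). Between the female mice, KO 63 over WT 55, the log2 ratio was -1.46, and between the male mice, KO 51 over WT 69, it was -1.03. Without KO 63 the log2 fold change was -0.91 and Klf10 missed the threshold, as it did with limma on the authors' normalized values (-1.23), with adjusted p-values of 0.0953 and 0.0706 in a range of 0.000685 to 0.0953 over all alternatives.

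The genes whose pattern over the 4 libraries lay nearest to that of Klf10, among 9434 other genes with a mean log2 CPM of at least 3, were Ccnb1, Plk1 and Depdc1b. Their centred log2 CPM differed from those of Klf10 by at most 0.058, 0.066 and 0.072 in any library. Ccnb1, which encodes the mitotic cyclin B1, was at 34.8 and 23.4 CPM in KO 51 and KO 63, against 64.4 and 72.5 CPM in WT 55 and WT 69. Plk1, which encodes a mitotic kinase, was at 34.3 and 20.97 CPM in the KO libraries, against 62.3 and 74.5 CPM in WT 55 and WT 69. Likeness over 4 libraries is a description of these values only.

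Klf13 and Klf9, the other members that recruit SIN3, did not pass. Klf13 (chr7:63886351-63938915, minus strand), known in T cells as an activator of Ccl5, was at 180 and 156 CPM in KO 51 and KO 63, against 247 and 164 CPM in WT 55 and WT 69. These groups overlapped, and WT 55 alone stood higher. Its log2 fold change was -0.29, with a 95% interval of -0.86 to 0.27 and an adjusted p of 0.39, and without WT 55 it was 0.064. Klf9 (chr19:23141226-23168134, plus strand), a gene induced by glucocorticoid and thyroid hormones, was at 2.48 and 4.08 CPM in KO 51 and KO 63, against 5.84 and 5.45 CPM in WT 55 and WT 69. Both KO libraries were below both WT libraries, KO 51 most so. The values rest on 100 and 123 counts in KO 51 and KO 63 and on 191 and 145 counts in WT 55 and WT 69. The fitted difference was -0.79 on the log2 scale (95% interval -1.73 to 0.16, adjusted p 0.189), and -0.47 without KO 51 or -1.19 without KO 63.

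Klf3, the CtBP-recruiting member that is expressed from an early stage of B cell development, differed little between the mice of a genotype. Klf3 (chr5:64803388-64832901, plus strand) was at 32.4 and 25.9 CPM in KO 51 and KO 63, against 40.7 and 39.0 CPM in WT 55 and WT 69. The groups did not overlap. The log2 fold change was -0.45 ± 0.19 (SE), with a 95% interval of -0.92 to 0.012 and an adjusted p of 0.14, so a fall to 0.731 times WT was not separated from no change. An antisense transcript, Gm20033, covers 3.59% of its exon bases.

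The activators Klf2, Klf4 and Klf6 did not pass, and in each of them WT 55 stood far above WT 69. Klf2 (chr8:72319033-72321656, plus strand), which drives S1pr1 in T cells, was at 349 and 237 CPM in KO 51 and KO 63, against 946 and 329 CPM in WT 55 and WT 69. WT 69 lay between the KO libraries, and WT 55 was 2.88 times WT 69. The difference was -1.12 on the log2 scale, with a 95% interval of -2.40 to 0.16 and an adjusted p of 0.173. Klf4 (chr4:55527143-55532466, minus strand), a pluripotency and monocyte factor that restrains B cell proliferation, was at 67.2 and 84.0 CPM in KO 51 and KO 63, against 317 and 104 CPM in WT 55 and WT 69. Both KO libraries were lower than WT 69, itself far below WT 55. The knockout differed by -1.48 on the log2 scale, with a 95% interval of -2.75 to -0.20 that is not adjusted for the number of genes, an unadjusted p of 0.0304 and an adjusted p of 0.0945 in edgeR. Klf6 (chr13:5861482-5870394, plus strand), an early-response gene abundant in myeloid cells, was at 161 and 223 CPM in KO 51 and KO 63, against 404 and 177 CPM in WT 55 and WT 69. Apart from WT 55 its libraries overlapped. The log2 fold change was -0.60 (95% interval -1.62 to 0.42, adjusted p 0.332).

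The values of these 3 genes moved with the WT library that was left out. Without WT 69, which leaves WT 55 as the only control, the log2 fold changes were -1.69 for Klf2, -2.07 for Klf4 and -1.08 for Klf6. All 3 then passed, with adjusted p-values of 0.0046, 0.000375 and 0.0119. Without WT 55 the values were -0.13, -0.43 and 0.15, with adjusted p-values of 0.771, 0.164 and 0.694, and Klf6 thus turned direction. Over all alternatives the adjusted p ranged from 0.0046 to 0.771 for Klf2, from 0.000375 to 0.242 for Klf4 and from 0.0119 to 0.694 for Klf6. A lone library is assumed there to vary like the others. The sex of the mice, read from Xist and Ddx3y, split each genotype into 1 female (KO 63, WT 55) and 1 male (KO 51, WT 69). Between the females the log2 ratios of KO over WT were -2.00 for Klf2, -1.91 for Klf4 and -0.86 for Klf6. Between the males they were 0.088, -0.64 and -0.14. With all 4 libraries Klf4 also passed by DESeq2 (adjusted p 0.0114), without a low-count filter (0.0365) and with sex as a block (log2 fold change -1.28, 0.026). Sex and the single mouse cannot be told apart, with 1 mouse per genotype and sex.

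**Figure D2:**
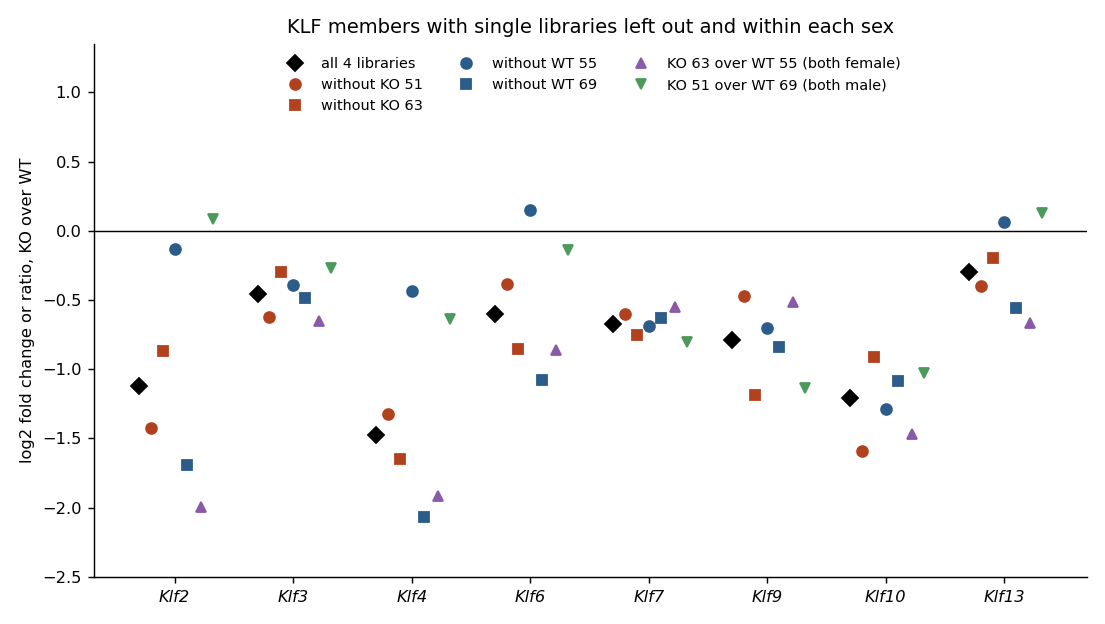
Log2 fold change of KO over WT for each KLF member in the edgeR fit to all 4 libraries (diamonds) and with each library left out (circles and squares), beside the log2 ratio between the female and between the male mice (triangles). Klf3, Klf4, Klf7, Klf9 and Klf10 stay below 0 throughout, and Klf2, Klf4 and Klf6 lie closer to 0, or above it, when WT 55 is left out.

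WT 55 was at least 2 times WT 69 for 5.74% of the tested genes (775), and WT 69 at least 2 times WT 55 for 5.49% (742). In the direction of the 3 KLF genes, a WT 55 to WT 69 ratio at least as high as that of Klf2, Klf4 or Klf6 was found for 2.6%, 2.32% and 4.26% of tested genes. Of 14 immediate-early genes, a list added after their values had been seen, Fosb, Fos and Egr3 were 3.74, 2.64 and 2.21 times as high in WT 55 as in WT 69. Jun, Jund, Egr1 and Ier2 were at 1.13, 1.02, 0.938 and 0.862 times. Fos was at 589 and 591 CPM in KO 51 and KO 63, against 1417 and 537 CPM in WT 55 and WT 69. Of the 14 genes, 10 fell in the knockout and 0 rose, against 10.9% and 11.3% of all tested genes. The median log2 fold change of the 14 was -1.55, against -0.020 over all tested genes. Egr1 fell by 3.32 on the log2 scale. What part the early response had in the KLF values was not tested.

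The promoters of Klf2, Klf4 and Klf6 are shown because these 3 genes stood furthest apart among the members between the WT mice, each higher in WT 55. Between the KO mice they did not move together, since Klf2 was 1.47 times KO 63 in KO 51 while Klf4 and Klf6 were 0.8003 and 0.723 times. Each sequence is the 250 bases before the RefSeq start of the gene (GRCm38.p6), on the gene's strand, at chr8:72318812-72319061 (plus), chr4:55532476-55532725 (minus) and chr13:5861239-5861488 (plus). Capitals mark, on either strand, the CACCC box, the GC box GGGCGG and a MEF2-like element, CTA and TAG with any 4 bases between them.
Klf2: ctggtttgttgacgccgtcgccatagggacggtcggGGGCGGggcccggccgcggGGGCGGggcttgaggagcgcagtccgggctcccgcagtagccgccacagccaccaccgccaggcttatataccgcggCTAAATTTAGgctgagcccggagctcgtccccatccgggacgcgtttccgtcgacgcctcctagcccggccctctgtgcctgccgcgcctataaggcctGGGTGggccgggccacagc
Klf4: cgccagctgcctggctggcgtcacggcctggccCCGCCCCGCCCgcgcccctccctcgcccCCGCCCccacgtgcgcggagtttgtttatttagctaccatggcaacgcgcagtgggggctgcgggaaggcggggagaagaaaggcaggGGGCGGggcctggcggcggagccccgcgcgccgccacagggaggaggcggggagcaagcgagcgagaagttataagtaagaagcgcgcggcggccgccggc
Klf6: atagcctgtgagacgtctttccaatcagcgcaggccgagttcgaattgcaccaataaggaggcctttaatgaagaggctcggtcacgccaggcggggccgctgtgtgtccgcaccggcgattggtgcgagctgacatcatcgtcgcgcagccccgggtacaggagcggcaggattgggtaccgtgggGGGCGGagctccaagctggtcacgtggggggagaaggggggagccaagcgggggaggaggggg
In these windows Klf2 held 2 GC boxes and 1 CACCC box, Klf4 held 4 GC boxes, and Klf6 held 1. A pair of the Klf4 GC boxes overlap by 1 base. The MEF2-like element of Klf2, at 118 to 109 bases before the start, was the only such match in the 7 member windows of the table. Of 32851 promoter windows, 52.0% held a CACCC box, 32.7% a GC box and 3.2% a MEF2-like element. Of the 7 windows, that of Klf3 had the most CACCC boxes (5) and GC boxes (6), and Klf7, Klf9 and Klf13 held 3, 1 and 1 CACCC boxes. RefSeq starts differ from the GENCODE coordinates given for the genes. The Klf7 window (chr1:64121390-64121639) lies inside the GENCODE span of the gene. Those of Klf3 (chr5:64803271-64803520), Klf2 and Klf6 run past the GENCODE starts at 64803388, 72319033 and 5861482. The CACCC box of Klf2, at 19 to 15 bases before the RefSeq start, thus lies inside the GENCODE span of the gene. A CACCC box and a GC box overlap by 1 base in Klf3 and in Klf13. The FOXO element GTAAACA and the AP-1 element TGANTCA were found in 3.17% and 6.75% of all windows. Among the 7 members with a window, both were matched in Klf9 alone, where the AP-1 element and the CACCC box share 2 bases. The CRE TGACGTCA (1.55%) was matched in none of these 7. Klf10 had no window and was not scanned. The windows were rich in G and C, from 59.2% in Klf7 to 78.4% in Klf3, against a median of 52.4% over all windows. Matches of letters describe the windows and are not shown to be bound.

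Klf7 (chr1:64029447-64122282, minus strand), an activator known from neurons and fat cells, was the lowest member per length. It was at 3.86 and 4.31 CPM in KO 51 and KO 63, against 6.33 and 6.73 CPM in WT 55 and WT 69. Mice of the same genotype were alike and the groups did not overlap. The log2 fold change was -0.67 (95% interval -1.41 to 0.060, adjusted p 0.157), from 156 and 130 counts in KO 51 and KO 63 and 207 and 179 counts in WT 55 and WT 69. Transcripts on the other strand, mainly Gm26649, cover 39.4% of its exon bases and have no row in the count table, so without a known strand setting the Klf7 value is uncertain.

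Levels between genes were compared per kilobase of exon, as RPKM. Klf2 was highest, at 189 and 128 RPKM in KO 51 and KO 63, against 512 and 178 RPKM in WT 55 and WT 69. It made up 66.6% and 54.4% of the summed RPKM of the 8 members in KO 51 and KO 63, and 67.3% and 60.0% in WT 55 and WT 69. That sum was 284 and 236 RPKM in the KO libraries, against 761 and 297 RPKM in WT 55 and WT 69, so WT 69 lay closer to the knockouts than to WT 55. Klf2, Klf4, Klf6 and Klf13 together held 92.5% to 97.4% of it in every library. In the knockout the order by mean RPKM was Klf2, Klf6, Klf4, Klf13, Klf10, Klf3, Klf9 and Klf7. In WT it was the same apart from Klf4 standing above Klf6. The ranges of Klf4 and Klf13 and of Klf9 and Klf7 overlapped in the knockout, and those of Klf4 and Klf6 in WT. With the length of the longest transcript, Klf13 stood above Klf4 in the knockout.

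**Figure D3:**
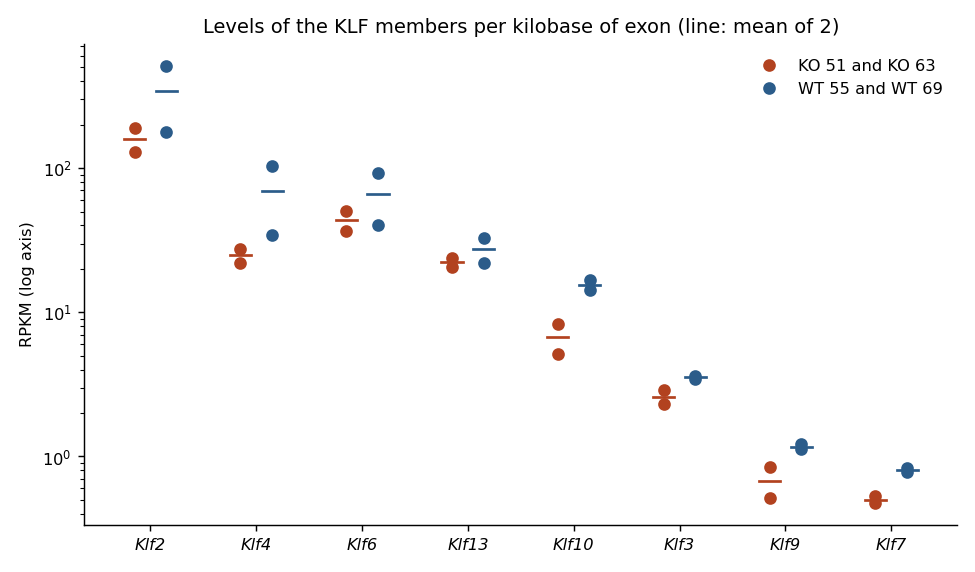
RPKM (log axis) of the KLF members in the KO libraries (left of each pair) and WT libraries, ordered by the WT mean; points are single libraries and lines are means of 2. Klf2 leads in both genotypes, and Klf9 and Klf7 lie near 1 RPKM or below.

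Among the other KLF and SP genes, 6 of 10 and 5 of 9 were tested. Klf1, the erythroid KLF, fell to 0.248 and 0.166 CPM in KO 51 and KO 63, against 2.66 and 3.46 CPM in WT 55 and WT 69. The log2 fold change was -3.84 ± 0.52 (SE, adjusted p 0.0109). Klf1 counts were 10 and 5 in KO 51 and KO 63, against 87 and 92 in WT 55 and WT 69. With the stricter low-count filter Klf1 was not tested. Klf1 is itself one of the 5 erythroid markers counted as lower above. Klf5, Klf8, Klf11, Klf12 and Klf16 did not pass in the edgeR fit. Klf5 passed as lower with limma on the authors' normalized values (-1.46, adjusted p 0.0396), and Klf11 passed as lower at a false discovery rate of 0.1. Klf11, the closest relative of Klf10, was at 24.3 and 17.0 CPM in KO 51 and KO 63, against 36.1 and 30.5 CPM in WT 55 and WT 69 (log2 fold change -0.69, adjusted p 0.0973). Klf16, another SIN3-recruiting gene, had a log2 fold change of 0.56 (adjusted p 0.191). Klf16 was at 38.9 and 40.6 CPM in KO 51 and KO 63, against 20.2 and 33.6 CPM in WT 55 and WT 69. Both KO libraries thus lay above both WT libraries. Its log2 fold change was 0.28 without WT 55 and 0.97 without WT 69. Klf8, a gene that Klf3 is known to repress in mouse erythroid cells, was at 7.06 and 10.2 CPM in KO 51 and KO 63, against 8.56 and 7.33 CPM in WT 55 and WT 69 (0.11, 95% interval -0.64 to 0.87). Klf14 and Klf17 had 0 counts, which allows up to 0.0743 to 0.113 CPM per library for counting error (3 counts). Klf15 had 2 and 0 counts in KO 51 and KO 63, against 4 and 3 in WT 55 and WT 69. Of the SP factors, which bind GC boxes, Sp4 and Sp2 fell, with log2 fold changes of -0.88 ± 0.14 and -0.70 ± 0.16 (SE, adjusted p 0.0153 and 0.0325). Sp4 and Sp2 missed the threshold without KO 51 (adjusted p 0.0701 and 0.135) and without KO 63 (0.0968 and 0.18), in ranges of 5.33e-05 to 0.0968 and 0.00411 to 0.18. Sp2 also missed it without WT 69 (0.0586) and with limma on the authors' values (0.0714). Sp1 and Sp3, the widely expressed SP factors, were at -0.30 and 0.39 and did not pass.

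**Figure D4:**
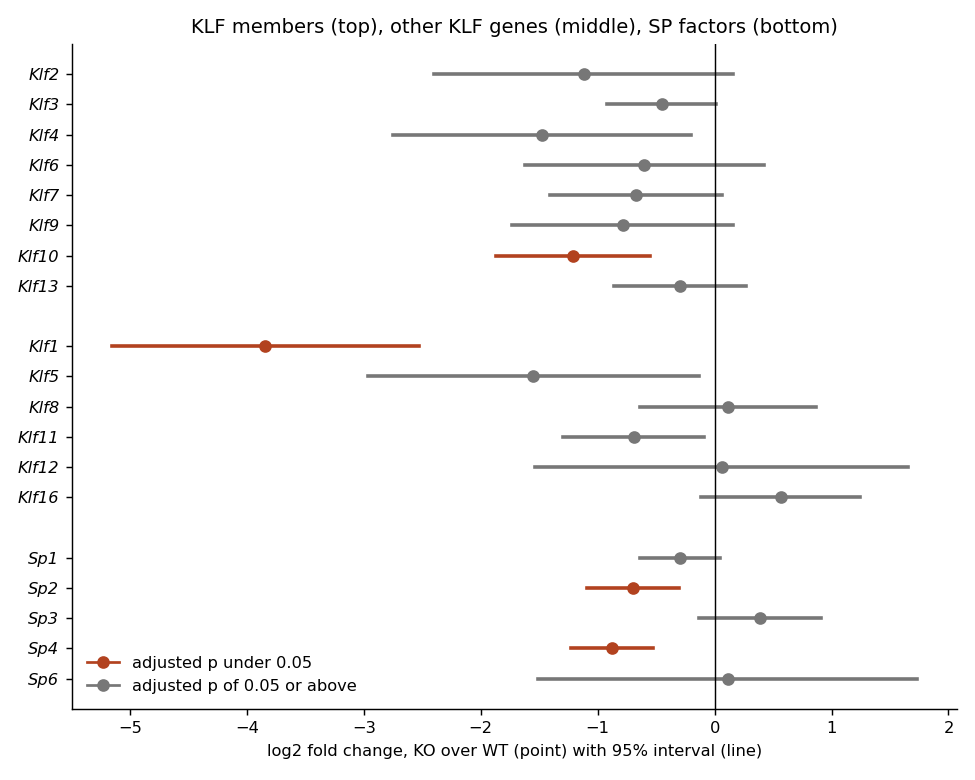
Log2 fold change of KO over WT (points) with 95% intervals from edgeR (lines, not adjusted for the number of genes) for the 8 KLF members, 6 other KLF genes and 5 SP factors. Klf10, Klf1, Sp2 and Sp4 pass an adjusted p of 0.05, and of the others all intervals but those of Klf4, Klf5 and Klf11 span 0.

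Genes that set KLF transcription, partner with KLF proteins or degrade them are read against the 10.9% of tested genes called lower and the 11.3% called higher. Of 10 tested genes of the ERK5, MEF2 and FOXO group, which is known to induce Klf2 and Klf4, 3 fell and 0 rose, with a median log2 fold change of -0.15. Foxo1, a known activator of Klf2 in T cells, was at 146 and 137 CPM in KO 51 and KO 63, against 375 and 384 CPM in WT 55 and WT 69. Its log2 fold change was -1.43 ± 0.14 (SE, adjusted p 0.00613). What part Foxo1 had in the Klf2 values was not tested. Mef2d and Foxo4 fell by 0.67 and 0.63 on the log2 scale (adjusted p 0.0303 and 0.0423). They missed the threshold without KO 51 (0.135 and 0.192) and without KO 63 (0.172 and 0.197), and Foxo4 without WT 55 (0.11). Mapk7, which encodes ERK5, was at -0.17 and did not pass. Of 20 corepressor and coactivator genes 2 fell and 0 rose, with a median of -0.19. These were Kat2b, a histone acetyltransferase (-0.78, adjusted p 0.0213), and Rcor1, a corepressor of the LSD1 complex (-0.62, 0.0288). Without KO 51 their adjusted p-values were 0.0778 and 0.143, without KO 63 they were 0.142 and 0.189, and Rcor1 was at 0.0692 without WT 55. The KLF partners Ctbp1, Sin3a and Hdac1 were at -0.22, -0.38 and 0.019 and did not pass. Of 9 ubiquitin ligase genes with reported KLF substrates, 2 fell and 0 rose, with a median of -0.15. Btrc and Fbxo32 fell by 0.82 and 1.16 (adjusted p 0.0176 and 0.0255), but not past the threshold without KO 51 (0.0523 and 0.0984) or KO 63 (0.122 and 0.0923), nor Fbxo32 without WT 55 (0.0566). Mef2d, Foxo4, Kat2b, Rcor1, Btrc and Fbxo32 also missed the threshold with limma on the authors' values (0.0520 to 0.0939).

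The TGF-beta and glucocorticoid lists bear on Klf10 and Klf9, and are read against the same 10.9% of tested genes lower and 11.3% higher. Of 9 TGF-beta pathway genes 1 rose and 1 fell, with a median of -0.28. The receptor gene Tgfbr1 was at 119 and 179 CPM in KO 51 and KO 63, against 85.0 and 63.7 CPM in WT 55 and WT 69 (1.001, adjusted p 0.0429), and Tgfbr2 at 94.3 and 92.4 CPM in the KO libraries, against 191 and 155 CPM in WT 55 and WT 69 (-0.89, 0.0176). Without KO 63 their adjusted p-values were 0.176 and 0.0923, and Tgfbr2 also missed the threshold without KO 51 (0.0757) and Tgfbr1 without WT 69 (0.0565). Smad7, an inhibitory gene of the pathway that Klf10 is reported to repress, was at -0.41 (adjusted p 0.171). Of 7 genes of the glucocorticoid response 2 rose and 2 fell, with a median of 0.13. Sgk1, a kinase gene, and Dusp1, a phosphatase gene, fell, with log2 fold changes of -3.71 and -1.502 (adjusted p 0.00525 and 0.0176). Fkbp5, a chaperone gene, and Zbtb16, a zinc finger gene, rose by 1.06 and 2.30 (0.0298 and 0.0417). Zbtb16 rests on 40 and 26 counts in KO 51 and KO 63 and on 6 and 5 counts in WT 55 and WT 69. Dusp1 missed the threshold with limma on the authors' values (0.0516), as did Fkbp5 (0.0723), Tgfbr1 (0.109) and Tgfbr2 (0.0619). Fkbp5 missed it too without KO 51 (0.063) or KO 63 (0.105), and Zbtb16 without any single library (0.148 to 0.178) and by DESeq2 (0.0685), by limma-voom (0.0518), without a filter (0.062) and with sex as a block (0.0517). Nr3c1, the glucocorticoid receptor gene, was at 0.13 and did not pass.

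Reported KLF target genes moved in both directions. Of 14 genes 5 rose, 4 fell and 5 did not pass, with a median log2 fold change of -0.10. Of all tested genes 11.3% rose and 10.9% fell. S1pr1, which encodes the receptor that lets lymphocytes leave tissue and is a known Klf2 target, was at 15.1 and 21.6 CPM in KO 51 and KO 63, against 232 and 103 CPM in WT 55 and WT 69. The groups did not overlap, and WT 55 was again the higher control. Its log2 fold change was -3.19 ± 0.44 (SE, adjusted p 0.0111), from -3.67 to -2.46 with a library left out. Itgb7, an integrin gene reported as a Klf2 target, was at 271 and 193 CPM in KO 51 and KO 63, against 51.7 and 29.1 CPM in WT 55 and WT 69. It rose (2.52, adjusted p 0.0102), and Ccr7, a homing receptor gene, fell (-2.20, adjusted p 0.016). Ccr7 was at 17.4 and 19.4 CPM in KO 51 and KO 63, against 114 and 55.8 CPM in WT 55 and WT 69, and its log2 fold change was -1.56 without WT 55. It missed the threshold with limma on the authors' values (0.0519). Cdkn1b, the gene of the cell cycle inhibitor p27, fell by 1.42 (adjusted p 0.00753). Ccnd1, the cyclin D1 gene, rose to 370 and 516 CPM in KO 51 and KO 63, against 45.3 and 12.03 CPM in WT 55 and WT 69 (3.95, adjusted p 0.0165, from 3.29 to 5.23 with a library left out). Ccnb1, given above, also fell (-1.23, adjusted p 0.022), but not past the threshold without KO 63 (0.075) or with limma on the authors' values (0.056). Ccl5 and Ccnd2, named after their values were seen, also rose (4.68 and 0.95, adjusted p 0.0344 and 0.0257). Ccl5 was at 2.48 without KO 51 and missed the threshold with limma-voom (0.152) and on the authors' values (0.0949). Ccnd2 missed it without KO 51 (0.1) and on the authors' values (0.0662). Ccl5 was at 134 and 16.4 CPM in KO 51 and KO 63, against 3.85 and 1.99 CPM in WT 55 and WT 69. The natural killer and innate lymphoid markers also summed higher in KO 51. Of that list Klrd1 alone was lower in KO 51, at 114 CPM against 155 CPM in KO 63. The part of these markers in the Ccl5 values was not tested. Cdkn1a, a reported Klf4 target, was at -0.053 (adjusted p 0.928). Dendritic cell markers rose in the same libraries, and their part in these values was not tested.

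**Figure D5:**
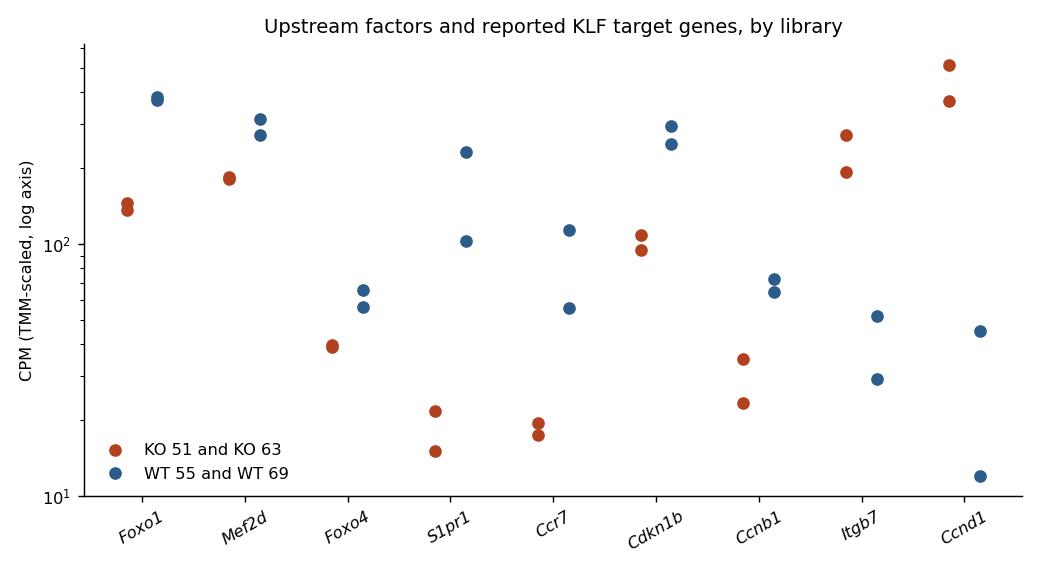
CPM (log axis, TMM-scaled) of Foxo1, Mef2d, Foxo4, Ccnb1 and reported KLF target genes in the KO libraries (left of each pair) and WT libraries; points are single libraries. S1pr1 and Itgb7, both reported Klf2 targets, lie on opposite sides of their controls.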

How the data were processed

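Per the labels' protocols, RNA was isolated by RNeasy Mini kit and made into libraries by a NEBNext Low Input kit. Per the submitters' processing notes, the builds were GRCm38 and mm10 and the tools included STAR 2.7.4a for alignment and featureCounts (Subread 2.0.0). The sources used here do not give the annotation, the strand setting or how multi-mapping reads were counted.

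The authors deposited raw counts for 24411 symbols, and a second table of normalized signal with 13021 rows, in which each deposited value was the count times 1 factor per library. Of these rows 20 carry dates in place of symbols and were left out. The counts entered edgeR 4.0.16 under R 4.3.3. The filter kept genes by filterByExpr (minimum count 10, minimum total 15), scaled by TMM and compared with the quasi-likelihood F test over all 4 libraries, with Benjamini-Hochberg adjustment over 13507 genes and a threshold of 0.05. SE is the absolute log2 fold change over the root of F, and 95% intervals use the degrees of freedom of the fit. The common dispersion was 0.0630. Each library is from its own mouse, so tests measure the spread between animals (n = 2 per genotype). Replicate counts differed beyond sampling noise (mean chi-square per gene 63.7 for KO and 87.2 for WT). Libraries have no molecular identifiers described, so the floor of 3 counts covers counting error only. Within-sex log2 ratios use counts plus 0.5. Exon lengths and gene coordinates are from GENCODE M21, in place of the planned RefSeq exon lengths. Promoters are from RefSeq, where 7 of 8 members, all but Klf10, have a window. The procedure was checked on data simulated with the common dispersion for every gene, which does not cover a spread that differs between genes.

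Alternatives were DESeq2 size factors or total counts in edgeR, no low-count filter, a stricter one (at least 1 CPM in 2 libraries and a mean count of 50), DESeq2 1.42.0, limma-voom and limma 3.58.1 on log2 of the authors' values plus 1, a false discovery rate of 0.1, each library left out, and sex as a block. The KLF members and all lists were chosen with earlier results of these data known. Named with values are the 8 members, Tnpo3, other KLF and SP genes, up to 3 called genes per direction and list by adjusted p, and the 3 genes nearest to the called member. Further genes in the text were picked after their values were seen. A gene that the lists count is not reported here.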

Additional observations from a re-analysis of the deposited data

Results flagged for a closer look

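The mice of each genotype were 1 female and 1 male. Of the 8 members, 6 other KLF genes and 5 SP factors tested, 5 genes had log2 ratios of opposite sign in the sexes. The share of all tested genes with opposite signs was not computed. A difference between the sexes was not tested, since each sex held 1 mouse per genotype. Between the females the log2 ratio of KO 63 over WT 55 was -2.00 for Klf2, -0.66 for Klf13, 0.25 for Klf8, -1.18 for Klf12 and -0.55 for Sp6. Between the males the log2 ratio of KO 51 over WT 69 was 0.088 for Klf2, 0.13 for Klf13, -0.055 for Klf8, 1.21 for Klf12 and 0.70 for Sp6. None of these 5 genes passed the threshold in edgeR, and the male ratios of Klf2 and Klf8 were under 0.1 in size. Sp6 rested on 18 and 8 counts in KO 51 and KO 63, and on 13 and 7 in WT 55 and WT 69. Klf12 rested on 117 and 35 counts in KO 51 and KO 63, and on 87 and 33 in WT 55 and WT 69.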

How the results depend on the processing

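The labels gave no pairing, because the mouse numbers, the replicate numbers of the labels, are not shared between the genotypes. Sex, read from the data, pairs KO 63 with WT 55 and KO 51 with WT 69, and with sex as a block 2137 genes were higher and 2186 lower. Of 13507 genes, 1524 were higher and 1468 lower in KO. Limma on the authors' normalized values gave 894 and 804, and a false discovery rate of 0.1 gave 2232 lower. With a library left out 747 to 1649 genes were higher and 530 to 1580 lower, the lowest without KO 63 (without KO 51, 904 and 712). Of the KLF members, 1 was lower, or 2 by DESeq2, without a filter, with sex as a block or at a false discovery rate of 0.1, 0 with limma on the authors' values, and 0 to 4 with a library left out. Klf4 was the added call, with log2 fold changes of -1.47 by DESeq2 (adjusted p 0.0114), -1.45 without a filter (0.0365), -1.28 with sex as a block (0.026) and -1.48 at the rate of 0.1. Klf10 was at -1.23 with limma on the authors' values. The causes were not tested. With a library left out the log2 fold changes ranged from -1.69 to -0.13 for Klf2, from -2.07 to -0.43 for Klf4, from -1.08 to 0.15 for Klf6, from -1.59 to -0.91 for Klf10 and from -0.56 to 0.064 for Klf13. Klf6 and Klf13 turned positive without WT 55. Direction also turned for Klf12 (-0.75 without KO 51, -0.38 without WT 69, range up to 0.75 without WT 55), Sp6 (-0.32 without KO 51, -0.15 without WT 69, up to 0.48 without WT 55) and Klf8 (-0.17 without KO 63, up to 0.35 without KO 51), none of them called. Klf3, Klf7 and Klf9 kept their direction and missed the threshold in every alternative. Other scalings moved the median of all genes by less than 0.1. With 2 mice per genotype the 95% intervals were wide, and those of Klf2 and Klf4 reached down to -2.40 and -2.75.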
